A study of Mus musculus with 8 samples.

Results

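The genes described here encode the machinery with which the proximal tubule takes filtered protein back from the tubular fluid: Lrp2 (megalin), Cubn (cubilin), Amn (amnionless), Lrpap1 (receptor-associated protein), Dab2, Myo6, Clcn5, Ocrl, Ehd1 and Rab11a. They were chosen by name from what is known of the pathway, and all 10 were found among the 23504 gene symbols of the count table. All 10 were among the 14711 genes tested. The series holds RNA sequencing of outer renal cortex from wild-type C57Bl6/J mice that ate a high fat diet (4 libraries, lettered A, B, F and G) or a control diet (4 libraries, lettered I, J, L and M). The diets began at 6 weeks of age and lasted 9 weeks, so all mice were 15 weeks old. The comparison asks which genes differ between the diets at that age. Sex is not stated, nor is it stated that libraries came from separate mice, so p-values cover the spread between these libraries alone.

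Megalin is a giant endocytic receptor that sits at the base of the brush border and binds albumin, vitamin carriers, hormones and many small filtered proteins. Cubilin is a large peripheral protein with no membrane anchor of its own and depends on amnionless to reach the apical membrane. Bound cargo enters clathrin-coated pits through the adaptor Dab2 and the motor myosin VI, is released in endosomes acidified by the proton pump and the exchanger encoded by Clcn5, and goes on to lysosomes, while the receptors recycle to the surface. In humans, inherited loss of megalin, cubilin, amnionless, CLCN5 or OCRL leads to protein in the urine.

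Total expected counts ran from 23503593 to 26291029 in the high fat libraries and from 26572175 to 30781585 in the control libraries. Rn45s, the precursor of ribosomal RNA, took 50.3% of the counts of control J, between 4.82% and 13.3% of those of the high fat libraries and between 1.23% and 5.70% of those of the other controls. It was left out, after which control J held 13993652 counts and the other 7 libraries between 21793784 and 30403685. Levels are given as CPM, which are the remaining counts scaled to the same total in every library with TMM factors. The tissue label was checked against marker lists. The 15 proximal tubule markers summed to between 27720 and 29120 CPM in the high fat libraries and between 23830 and 25110 CPM in the controls. Of 6 fat markers only Fabp4 was tested, and the other 5, Adipoq and Plin1 among them, had at most 9 counts in any library.

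Cubn fell on the high fat diet and was the only one of the 10 genes to pass edgeR's test. Megalin was lower by a smaller margin in every high fat library than in any control library and did not pass it. In a bulk sample fewer cells of a type and less RNA per cell cannot be told apart. Between the diets 9.99% of all tested genes were called (adjusted p under 0.05, edgeR's quasi-likelihood test with Benjamini-Hochberg adjustment), 5.13% lower and 4.86% higher on the high fat diet, so 1 call among 10 genes is the background share. The median log2 fold change of the 10 genes was 0.04, against -0.00 for all tested genes, and their median absolute log2 fold change was 0.14, against 0.13. The log2 fold changes of 4 members lay below 0 and those of 6 above it. In 3 members the CPM of the diets did not overlap (Cubn and Lrp2 lower, Lrpap1 higher on the high fat diet), as in 17.5% of tested genes.

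**Figure D1:**
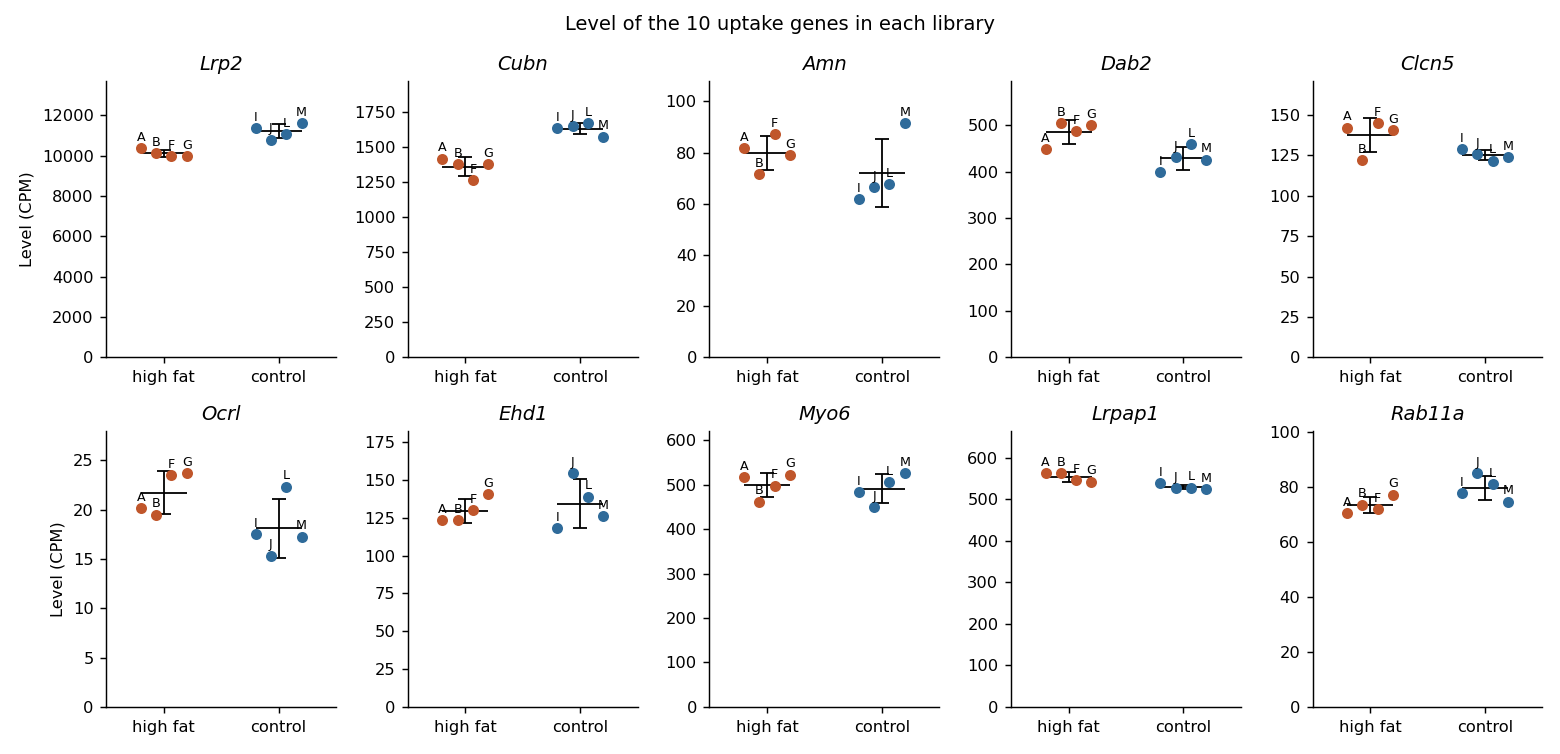
Level of each of the 10 genes in CPM (linear axes from 0) in the high fat libraries A, B, F and G and the control libraries I, J, L and M. Points are libraries, and bars are mean and SD of 4. The high fat points of Cubn, between 1265 and 1419 CPM, lie below all control points, between 1576 and 1672 CPM.

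Cubn (chromosome 2, 13276338 to 13491813 on GRCm38, minus strand) spans 215.5 kb, and its longest annotated transcript joins 67 exons. It had 1419, 1379, 1265 and 1382 CPM in high fat A, B, F and G, against 1636, 1651, 1672 and 1576 CPM in control I, J, L and M. The diets did not overlap, and high fat F was the lowest library. Cubn averaged 1361 ± 66.8 CPM on the high fat diet and 1634 ± 41.0 CPM on the control diet (SD, n = 4 each), so that it fell by 16.7%. On the log2 scale it changed by -0.26 ± 0.06 (SE; 95% interval -0.39 to -0.14; edgeR adjusted p = 0.0182). At least 21216 expected counts per library stood behind these levels, so counting error was small beside the spread between libraries. The call was lost without high fat F (-0.23, edgeR adjusted p = 0.0512). It was also lost with high fat G and control J both left out (-0.27, edgeR adjusted p = 0.0773).

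Lrp2 (chromosome 2, 69424340 to 69586065, minus strand) has 79 exons in its longest annotated transcript of 15460 bases. It had 10367, 10130, 9957 and 9987 CPM in high fat A, B, F and G, against 11350, 10790, 11056 and 11605 CPM in control I, J, L and M. Every high fat library was below every control library. That pattern was present in 9.2% of tested genes. Lrp2 averaged 10110 ± 187 CPM on the high fat diet and 11200 ± 354 CPM on the control diet (SD, n = 4 each). Its log2 fold change was -0.15 ± 0.07 (SE), with a 95% interval that ended just below 0 (-0.30 to -0.00011), an unadjusted p = 0.0499 and an adjusted p = 0.183 in edgeR. DESeq2's Wald test called it, at -0.14 with adjusted p = 0.0222. The separation rests on the TMM scaling: as FPKM without Rn45s, control J stood at 641, below the high fat libraries at 645 to 664, while control I, L and M lay between 741 and 782.

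Megalin messenger RNA was among the most abundant of the cortex. It made up 1.01% of normalized counts on the high fat diet and 1.12% on the control diet, and was the 4th of 14711 tested genes by CPM. Long transcripts collect more reads, and per length (FPKM) it ranked 77th of 23504. Other long transcripts were examined beside Lrp2 and Cubn. Of the tested genes, 319 had an annotated transcript of at least 10000 bases, and their median log2 fold change was 0.05. On the high fat diet 26 of these 319 were called higher and 12 lower. Over all 14711 tested genes 715 (4.86%) were called higher and 754 (5.13%) lower. Whether transcript length has a part in the lower values of Cubn and Lrp2 was not tested.

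The 250 bases before the start of the pair of receptor genes that were lower on the high fat diet, and of Amn, whose product works with cubilin but whose RNA was not lower, are shown to let their promoters be compared. They come from RefSeq on GRCm38.p6 and are written 5′ to 3′ on the strand of the gene, and a promoter window was found for 9 of the 10 genes. Starts here are those of RefSeq and differ for Lrp2 and Cubn from the gene positions given above, which come from GENCODE. The Lrp2 window reaches into the position given for the gene, and the Cubn window lies apart from it. Capitals mark the motifs found.
Lrp2, chr2:69586030-69586279, minus strand: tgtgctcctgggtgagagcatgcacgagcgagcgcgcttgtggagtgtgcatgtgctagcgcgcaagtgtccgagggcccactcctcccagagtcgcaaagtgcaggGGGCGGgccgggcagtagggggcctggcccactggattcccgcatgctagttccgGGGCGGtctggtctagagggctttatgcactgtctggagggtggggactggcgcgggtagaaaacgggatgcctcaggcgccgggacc
Cubn, chr2:13491877-13492126, minus strand: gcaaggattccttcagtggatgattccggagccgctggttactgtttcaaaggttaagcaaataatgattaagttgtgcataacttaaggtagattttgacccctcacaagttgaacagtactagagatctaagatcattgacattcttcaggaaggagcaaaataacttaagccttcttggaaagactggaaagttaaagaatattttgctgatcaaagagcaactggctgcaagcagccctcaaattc
Amn, chr12:111270846-111271095, plus strand: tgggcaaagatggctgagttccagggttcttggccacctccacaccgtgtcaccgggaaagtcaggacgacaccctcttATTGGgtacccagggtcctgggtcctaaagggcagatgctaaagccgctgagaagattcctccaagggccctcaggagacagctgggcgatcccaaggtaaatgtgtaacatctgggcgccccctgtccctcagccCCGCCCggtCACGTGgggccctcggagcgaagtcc
The windows were searched on both strands for 6 motifs, none of which contains another: the GC box GGGCGG, the CCAAT box, the E-box CACGTG, the TATA box TATAAA, the HNF1 half-site GTTAAT and the nuclear receptor half-site AGGTCA. The Lrp2 window holds 2 GC boxes, 143 and 88 bases before the start, a motif that 32.7% of 32851 promoter windows of this length hold. The Amn window holds a CCAAT box on the reverse strand (33.8% of windows), a GC box on the reverse strand and, 26 bases before the start, an E-box (6.02% of windows). None of the 6 motifs is in the Cubn window, and no HNF1 half-site (6.43% of windows), nuclear receptor half-site (14% of windows) or TATA box (12.4% of windows) is in any of the 3. The windows differ in base composition: G and C make up 39.6% of the Cubn window, 66.4% of that of Lrp2 and 61.2% of that of Amn, against a median of 52.4% over all windows. These matches describe letters and are not evidence of binding.

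Amn (chromosome 12, 111271095 to 111276426, plus strand) encodes the membrane anchor of cubilin. It had 81.7, 71.5, 87.3 and 78.9 CPM in high fat A, B, F and G, against 61.8, 66.4, 67.8 and 91.5 CPM in control I, J, L and M. All high fat libraries were above 3 of the controls, and control M was above all of them, so the diets overlapped. The log2 fold change was 0.15 ± 0.11 (SE; 95% interval -0.10 to 0.40, adjusted p = 0.429 in edgeR). Without control M it was 0.29, and only that 1 of 17 alternatives called Amn. No p is given for it, because leaving out the overlapping library fixes the separation. The messages of cubilin and its anchor had point estimates of opposite sign, as the plot of log2 fold changes shows.

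**Figure D2:**
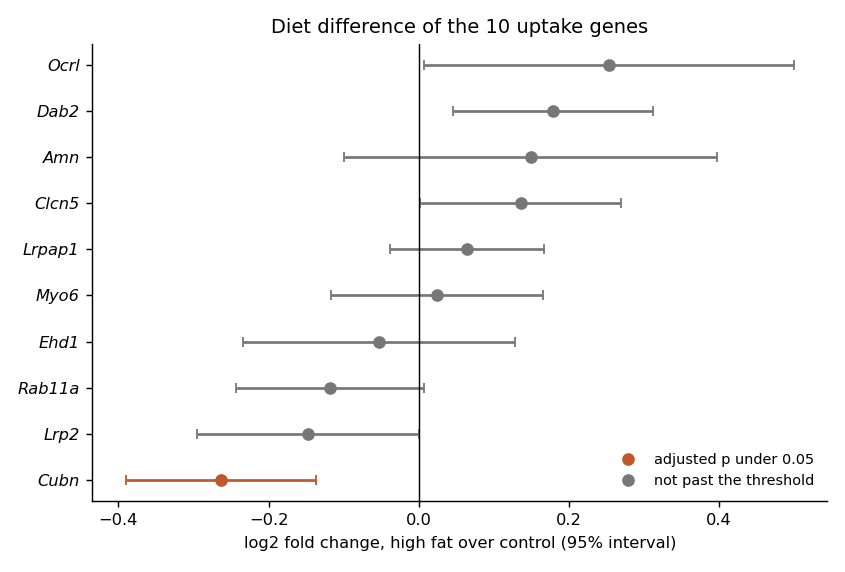
log2 fold change (high fat over control) of each of the 10 genes with its 95% interval from edgeR's quasi-likelihood fit. Cubn, at -0.26, is the only gene past the threshold, Ocrl, at 0.25, is the highest point, and the intervals of Amn and Ocrl are the widest.

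Lrpap1 (chromosome 5, 35091501 to 35105766, minus strand) encodes receptor-associated protein, the chaperone that keeps megalin from binding ligands in the endoplasmic reticulum. It had 563, 564, 546 and 543 CPM in high fat A, B, F and G, against 538, 527, 529 and 525 CPM in control I, J, L and M. The diets did not overlap, with the high fat libraries above, a pattern that 8.31% of tested genes had. As FPKM without Rn45s the diets overlapped, with control I at 192.3, above high fat F at 192.2 and high fat G at 190.4. The difference was small (log2 fold change 0.06 ± 0.05 SE; 95% interval -0.04 to 0.17; edgeR adjusted p = 0.411) and did not pass.

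Ratios between members were compared within each library, where the scaling between libraries has no part. The log2 ratio of Lrpap1 to Lrp2 was -4.20, -4.17, -4.19 and -4.20 in high fat A, B, F and G, against -4.40, -4.35, -4.39 and -4.46 in control I, J, L and M. Megalin message was thus lower relative to that of its chaperone in all high fat libraries. The means differed by 0.21, at -4.19 ± 0.02 on the high fat diet and -4.40 ± 0.05 on the control diet (SD, n = 4 each), with p = 0.0286 in a two-sided exact permutation test (its minimum over 70 splits) and 0.0857 after Benjamini-Hochberg adjustment over the 3 ratios examined. The log2 ratio of Amn to Cubn averaged -4.09 ± 0.17 on the high fat diet and -4.52 ± 0.28 on the control diet (SD, n = 4 each; exact two-sided permutation p = 0.114, adjusted p = 0.114). Control M, at -4.11, lay within the high fat range of -4.27 to -3.86, and without it the difference of 0.43 became 0.57. The log2 ratio of Cubn to Lrp2 averaged -2.89 ± 0.06 on the high fat diet and -2.78 ± 0.08 on the control diet (SD, n = 4 each; exact two-sided permutation p = 0.114, adjusted p = 0.114). Here too control M, at -2.88, lay within the high fat range, and without it the difference of -0.12 became -0.15. No p is given without control M, because leaving out the overlapping library fixes the separation. Cubn and Lrp2 were therefore not shown to differ in response over all 8 libraries.

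**Figure D3:**
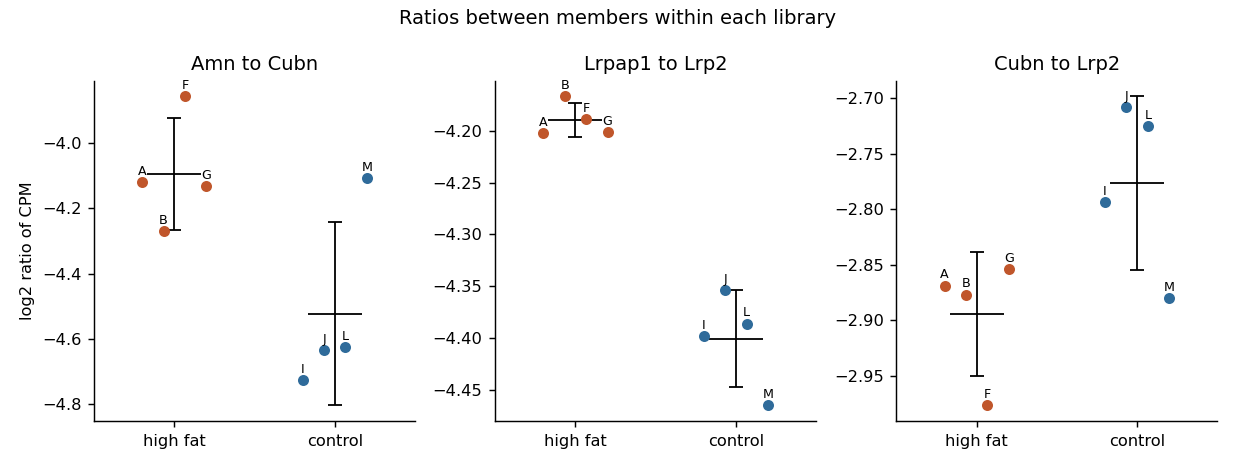
log2 ratio of CPM between pairs of members in each library, with mean and SD of 4 per diet (the vertical axes do not start at 0). The ratio of Lrpap1 to Lrp2 separates the diets, at -4.20 to -4.17 on high fat and -4.46 to -4.35 on control, while control M falls within the high fat range in the other two.

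Dab2 (chromosome 15, 6299788 to 6440712, plus strand) encodes the adaptor that links the tail of megalin to clathrin. Among the members that did not pass it had the smallest p. It had 449, 504, 488 and 499 CPM in high fat A, B, F and G, against 399, 432, 459 and 426 CPM in control I, J, L and M. The lowest high fat library, A, lay below the highest control, L, and the other 3 high fat libraries lay above all controls. The log2 fold change was 0.18 ± 0.06 (SE; 95% interval 0.05 to 0.31), with an unadjusted p = 0.0132 and adjusted p = 0.0851 in edgeR, and DESeq2's Wald test called it at adjusted p = 0.04. Myo6 (chromosome 9, 80165031 to 80311729, plus strand), the motor that moves coated vesicles along actin towards the base of the microvilli, averaged 500 ± 27.3 CPM on the high fat diet and 491 ± 33.0 CPM on the control diet (SD, n = 4 each). Its log2 fold change of 0.02 had a 95% interval of -0.12 to 0.17 (adjusted p = 0.844 in edgeR), so a fall as large as that of Cubn lies outside the interval. Without control J the value turned to -0.0165.

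Clcn5 and Ocrl, both X-linked, act in the endosome. Clcn5 (chromosome X, 7153810 to 7319358, minus strand), the chloride and proton exchanger of early endosomes, had 142, 122, 145 and 141 CPM in high fat A, B, F and G, against 129, 126, 122 and 124 CPM in control I, J, L and M. High fat B lay among the controls and the other 3 high fat libraries above them. Its log2 fold change was 0.14 (95% interval 0.00 to 0.27, adjusted p = 0.176 in edgeR), and without high fat B it was 0.19. Ocrl (chromosome X, 47912387 to 47965868, plus strand), an inositol polyphosphate phosphatase of coated pits and endosomes, had 20.2, 19.5, 23.5 and 23.7 CPM in high fat A, B, F and G, against 17.5, 15.3, 22.3 and 17.3 CPM in control I, J, L and M. Control L lay among the high fat libraries and the other controls below them. The log2 fold change was 0.25 ± 0.11 (SE; 95% interval 0.01 to 0.50, adjusted p = 0.171 in edgeR), the highest point estimate of the 10 genes. Without control L it was 0.37. Clcn5 and Ocrl were each called in only 1 of 17 alternatives, the one without the library that overlapped. No p is given there, because leaving out the overlapping library fixes the separation.

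Ehd1 and Rab11a serve the return of receptors to the surface. Ehd1 (chromosome 19, 6276725 to 6300096, plus strand), a membrane-shaping ATPase of recycling tubules, averaged 129 ± 8.06 CPM on the high fat diet and 134 ± 16.1 CPM on the control diet (SD, n = 4 each), with controls running from 118 in I to 155 in J. Its log2 fold change of -0.05 (95% interval -0.23 to 0.13, adjusted p = 0.726 in edgeR) turned to 0.02 without control J. Rab11a (chromosome 9, 64715299 to 64737758, minus strand), the small GTPase of apical recycling endosomes, had 70.5, 73.5, 71.8 and 77.1 CPM in high fat A, B, F and G, against 77.8, 85.0, 81.0 and 74.6 CPM in control I, J, L and M. High fat G and control M crossed, and the diets otherwise stood apart. The log2 fold change was -0.12 (95% interval -0.24 to 0.01, adjusted p = 0.207 in edgeR).

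Per transcript length the 10 genes spanned a wide range, as the plot of FPKM shows. Lrp2 stood at 652 ± 8.55 FPKM on the high fat diet and 728 ± 60.7 FPKM on the control diet, 155 and 205 times the level of Ocrl, which was last at 4.21 ± 0.47 and 3.55 ± 0.72 FPKM (SD, n = 4 each, Rn45s left out). Lrpap1 came next, at 190.4 to 195 FPKM on the high fat diet and 169 to 192 FPKM on the control diet. The next 2 places differed between the diets. On the high fat diet Dab2, at 127 ± 6.84 FPKM, was above Cubn, at 120 ± 5.11 FPKM, in 3 of 4 libraries with overlapping ranges, whereas on the control diet Dab2, at 113 ± 9.76 FPKM, was below Cubn, at 145 ± 8.02 FPKM, in all 4 with no overlap. Myo6 followed at 63.5 ± 3.88 and 63.1 ± 7.54 FPKM. Amn, Ehd1, Clcn5 and Rab11a lay between 31.9 and 48.7 FPKM on the high fat diet and between 33.2 and 44.3 FPKM on the control diet. Ranges of neighbours in that last group overlapped, except those of Ehd1 and Rab11a on the control diet. Amn stood at 0.405 of the FPKM of Cubn on the high fat diet and 0.301 on the control diet (geometric means over 4 libraries).

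**Figure D4:**
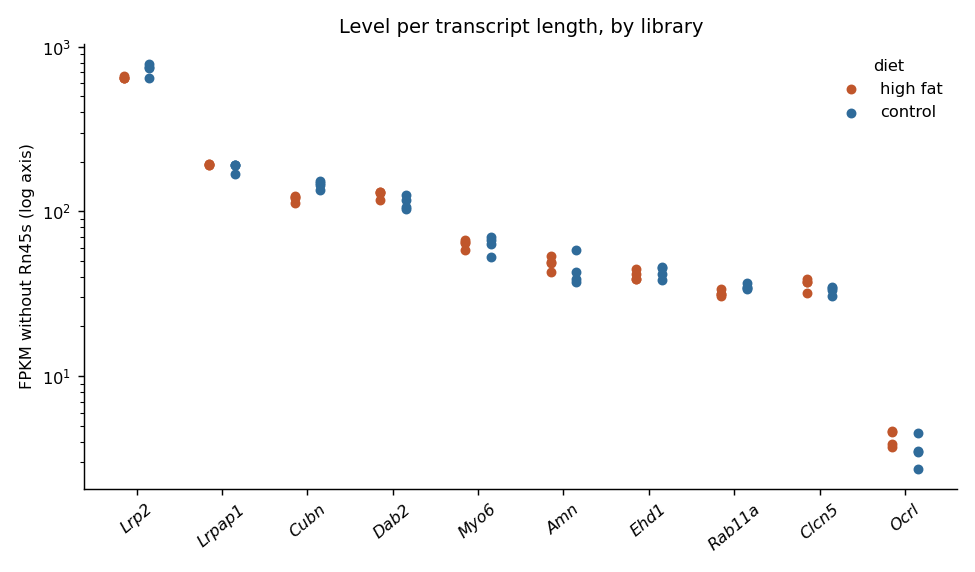
FPKM with Rn45s left out (log axis) for each gene, 1 point per library, high fat left of control, with genes in order of their mean on the control diet. Lrp2 lies between 641 and 782 in all libraries and Ocrl between 2.74 and 4.63, and the high fat points of Cubn are below its control points.

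Cubn and Lrp2 are the only members in the authors' deposited tables of differing genes, which list 1133 gene symbols in one and 1175 Ensembl genes in the other. In the authors' deposited table by gene symbol the fold of high fat over control was 0.835 for Cubn and 0.905 for Lrp2, with posterior probabilities of equal expression of 2.77e-10 and 1.78e-05. In the Ensembl table the deposited FPKM of Cubn were 99.4, 91.1, 92.6 and 101 in high fat A, B, F and G, against 120, 101, 120 and 120 in control I, J, L and M. Those of Lrp2 were 540, 492, 535 and 542 on the high fat diet, against 603, 497, 596 and 637 on the control diet. Control J thus sat at the edge of the high fat range for Cubn and within it for Lrp2. Over the genes of that table control J stood at a median of 0.845 of the mean of the other 3 controls. The table holds only genes listed as differing between the diets, so this median does not describe control J over all genes.

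Of the 15 proximal tubule markers 4 rose, 1 fell and 10 did not pass, with a median log2 fold change of 0.07 over the list. For this and the marker lists below, the share called over all tested genes was 9.99%, with 4.86% higher and 5.13% lower. Pck1, a gluconeogenic enzyme, rose by 0.71 on the log2 scale, the bicarbonate cotransporter gene Slc4a4 by 0.34, the phosphate cotransporter gene Slc34a1 by 0.33 and Ggt1 by 0.26, while the water channel gene Aqp1 fell by 0.22. The summed level of these markers was higher in every high fat library than in any control library. Much of that sum lay in a few abundant genes, with Pck1 at 4334 CPM on the high fat diet and 2649 CPM on the control diet and Slc34a1 at 6614 and 5261 CPM, while 6 of the 15 markers had log2 fold changes below 0. Slc34a1 and Aqp1 kept their calls in only 6 of 17 alternatives and Ggt1 in 9, whereas Pck1 and Slc4a4 kept theirs under all 17. Of the 6 markers of the thick ascending limb, a segment downstream of the proximal tubule, 5 fell, and the 6 summed to 2908 to 3659 CPM in the high fat libraries and 3654 to 4316 CPM in the controls. Slc12a1 kept its call in all 17 alternatives, Cldn19 and Ppp1r1a in 16, Kcnj1 in 14 and Cldn16 in 12. Of 11 distal tubule and collecting duct markers 2 fell, the sodium channel subunit gene Scnn1g by 0.44 and the vasopressin receptor gene Avpr2 by 0.45 on the log2 scale, and 4 had an unadjusted p under 0.05. With high fat G and control J both left out, 2 proximal tubule markers, 1 thick ascending limb marker and 1 distal or collecting duct marker passed in edgeR. Of the 8 podocyte markers 0 passed in edgeR, 2 had an unadjusted p under 0.05 and 7 were below 0, with sums of 462 to 520 CPM on the high fat diet and 521 to 530 CPM on the control diet. Beside these counts, 4018 of all 14711 tested genes had an unadjusted p of 0.0499 or less in edgeR. Of 8 endothelial and 8 macrophage markers 0 passed in edgeR, with 0 below 0.05 in unadjusted p, and of 8 stromal markers Acta2 fell. The Acta2 call was lost without high fat B, F or G, without control J, and with high fat G and control J both left out (edgeR adjusted p up to 0.102). The part of these differences in the fall of Cubn was not tested.

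The genes that surround these receptors in the uptake route had no call in edgeR, where 9.99% of all tested genes were called. Of 84 tested genes of the clathrin coat and adaptors (20), the early endosome (14), apical recycling (15), endosomal acidification (21) and phosphoinositide control (14), 0 passed in edgeR, and an unadjusted p under 0.05 was found for 15. Of all 14711 tested genes, 4018 had an unadjusted p of 0.0499 or less in edgeR, so the 15 are not an excess over that background. The log2 fold changes of the 84 genes ran from -0.21 to 0.27 with a median of 0.02, and 78 lay within 0.2 of 0. DESeq2's Wald test called 1 of them, in the recycling list. Among the lowest p were those of the exocyst gene Exoc5, at 61.6 ± 3.02 CPM on the high fat diet and 69.6 ± 2.44 CPM on the control diet (SD, n = 4 each; adjusted p = 0.0644 in edgeR), and of the Rab11 effector gene Rab11fip1, at 23.4 ± 0.62 and 20.4 ± 1.26 CPM (adjusted p = 0.0677). These 2 were picked after their values were seen. The 20 coat genes summed to between 2676 and 2878 CPM in the high fat libraries and between 2718 and 2900 CPM in the controls.

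**Figure D5:**
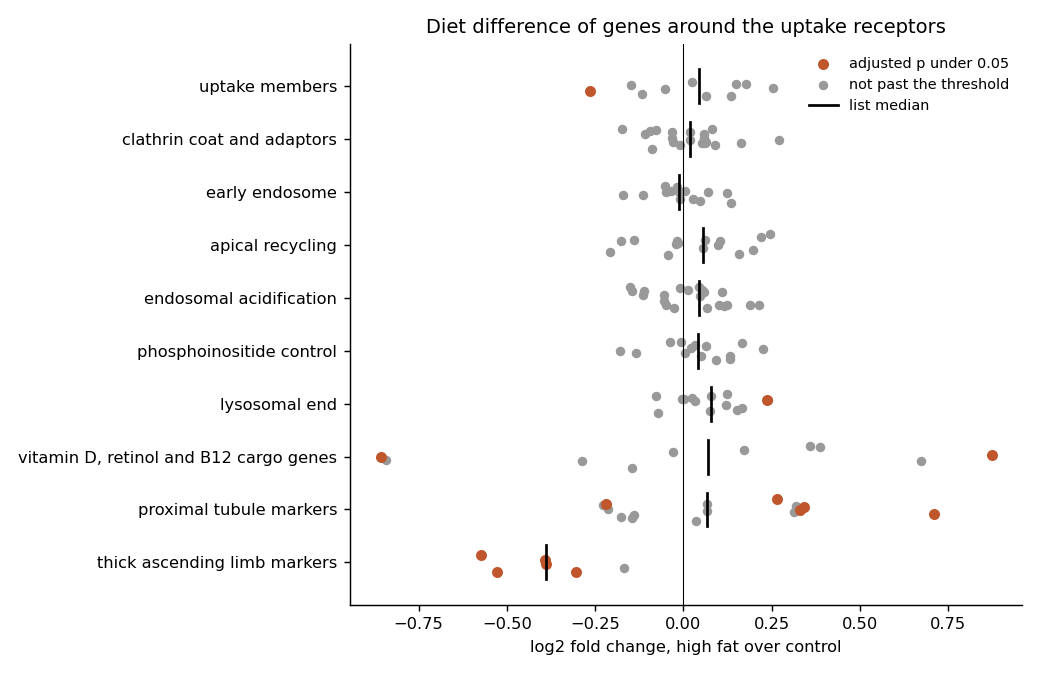
log2 fold change (high fat over control) of the genes of 10 lists, 1 point per gene, with the list median as a black line and called genes in orange. The points of the 5 lists of coat, endosome, recycling, acidification and phosphoinositide genes stay between -0.21 and 0.27 with none called.

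Among 15 tested receptors and partners, 2 fell and 13 did not pass. The lipoprotein receptor genes Vldlr and Lrp1 did not pass, with Vldlr at 161 ± 8.58 CPM on the high fat diet and 156 ± 5.91 CPM on the control diet and Lrp1 at 145 ± 18.3 and 137 ± 19.3 CPM (SD, n = 4 each). Folr1, an apical folate receptor, had 386, 391, 358 and 361 CPM in high fat A, B, F and G, against 440, 515, 465 and 400 CPM in control I, J, L and M. It fell by 0.28 on the log2 scale (edgeR adjusted p = 0.0391). The call held in 9 of 17 alternatives and was lost on leaving out any one of high fat A, B, F and G and control I, J and L, or high fat G with control J (adjusted p up to 0.164). Fcgrt, which encodes the neonatal Fc receptor that salvages albumin and IgG, did not pass, at 269 ± 30.6 CPM on the high fat diet and 224 ± 11.8 CPM on the control diet (SD, n = 4 each; adjusted p = 0.0592 in edgeR). Vldlr, Lrp1 and Fcgrt were picked after their values were seen.

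At the lysosomal end 1 of 14 genes rose, none fell and 13 did not pass, where 4.86% of all tested genes were called higher. Lamp1, a lysosomal membrane glycoprotein, had 1283, 1306, 1304 and 1249 CPM in high fat A, B, F and G, against 1093, 1108, 1078 and 1082 CPM in control I, J, L and M. It rose by 0.24 ± 0.05 (SE) on the log2 scale, with adjusted p = 0.0157 in edgeR, and the diets did not overlap. Separation with the high fat libraries above was present in 8.31% of tested genes. The call was lost with limma on log2 FPKM, and with high fat G and control J both left out (edgeR adjusted p = 0.0538). Of 10 tested genes of vitamin D, retinol and B12 handling, which include carriers, enzymes and receptors, 1 rose, 1 fell and 8 did not pass. The shares over all tested genes were 4.86% called higher and 5.13% called lower. Ttr, the transthyretin that travels with retinol-binding protein, had 186, 103, 154 and 160 CPM in high fat A, B, F and G, against 97.5, 77.5, 64.0 and 90.4 CPM in control I, J, L and M, and rose by 0.87 on the log2 scale (adjusted p = 0.0115 in edgeR). Gc, the vitamin D-binding protein, had 13.3, 16.8, 9.49 and 11.6 CPM in high fat A, B, F and G, against 25.5, 26.2, 25.1 and 16.3 CPM in control I, J, L and M. It fell by 0.86 on the log2 scale (adjusted p = 0.0161 in edgeR), with control M just under high fat B. Both calls were lost with high fat G and control J both left out (edgeR adjusted p = 0.0783 for Ttr and 0.102 for Gc). Vdr, the vitamin D receptor, and Cyp24a1, which breaks vitamin D down, had edgeR adjusted p = 0.0722 and 0.108 and were picked after their values were seen.

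Genes with a pattern like that of the receptors were sought among 8217 other protein-coding genes averaging 10 CPM or more, by the root-mean-square difference between centred log2 CPM over the 8 libraries. The nearest to Lrp2 were Stt3a, Elp2 and Etf1, at 0.0253, 0.0257 and 0.0269, none of which passed the test. Among the nearest to Cubn were Rcan2 and Sri, at 0.032 and 0.0326, which fell by 0.29 and 0.26 on the log2 scale. The call held in 8 of 17 alternatives for Rcan2 and in 11 of 17 for Sri, and both were lost with limma on log2 FPKM and with high fat G and control J both left out (adjusted p up to 0.0841 for Rcan2 and 0.0783 for Sri over all alternatives). Lrp2 and Cubn stood 0.0831 apart from each other, so neither was among the nearest of the other. These distances share the libraries and their scaling and are given as a description.

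Positions are those of the whole gene on GRCm38 as annotated in GENCODE M21. Cubn overlaps 368 bases of exon of the opposite-strand transcript Gm13270, Dab2 overlaps 211 bases of the opposite-strand pseudogene Gm18888, and Rab11a 107 bases of the predicted small RNA Gm47308. None of the 3 has a line in the count table. Gm47308 lies on the same strand as Rab11a, so strand cannot tell its reads apart from those of Rab11a. The sources used here do not say whether counting used strand. Whether reads from Gm13270 and Gm18888 on the opposite strand were kept apart from those of Cubn and Dab2 is therefore not known.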

How the data were processed

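For each gene symbol the authors deposited expected counts (estimates that can hold decimals) and FPKM values. The submitters' processing notes name RSEM 1.2.9, CASAVA 1.8.2 and mm10, and per the labels' protocols libraries were made from 1 ug of total RNA with a kit that removes ribosomal RNA. Further tables deposited by the authors list differing genes with a fold (a ratio with high fat on top) and, as a score, a posterior probability of equal expression. The sources used here do not name the tool behind them. RSEM divides reads among similar genes by likelihood.

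Rn45s was left out, and expected counts were rounded and compared by the quasi-likelihood F test of edgeR 4.0.16 (R 4.3.3), with TMM, filterByExpr and diet as the only term. Calls were made at p under 0.05 after Benjamini-Hochberg adjustment over all 14711 genes. Standard errors are |log2 fold change| over the square root of F, and 95% intervals use the fit's t distribution. FPKM were rescaled to a total without Rn45s. The test was also run on simulated counts, and no result given here rests on that run. Lists held 17 groups of genes, with 5 symbols matched through RefSeq synonyms. The members and lists were chosen with earlier results of these data known. All 10 members are named, of each pathway list up to 4 called genes with the smallest p, the 3 genes most like Lrp2 and like Cubn, and marker genes as part of a list's count; 2 genes that these rules name are not reported here. Alternatives used DESeq2 1.42.0, limma 3.58.1 (voom, and log2(FPKM + 0.1) or log2(FPKM + 1) for genes with a mean FPKM of at least 0.5), other filters, and leaving out libraries. The same alternatives for list genes and the genes most like the receptors were added after seeing the data. Library letters differ between the diets and pair nothing.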

Additional observations from a re-analysis of the deposited data

Results flagged for a closer look

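Among 64 groups of 4 libraries examined, 4 held a library that stood apart from the other 3, by a gap to the nearest that passed Dixon's critical value at 95%, and chance gives about 1 in 20. The log2 ratio of Amn to Cubn was -4.11 in control M, against -4.73 to -4.62 in the other controls. The level of Gc was 16.3 CPM in control M, against 25.05 to 26.2 CPM in the other controls. The level of the potassium channel gene Kcnj1, a thick ascending limb marker, was 201 CPM in high fat F, against 226 to 230 CPM in the other high fat libraries. Rn45s took 50.3% of the counts in control J, against 1.23% to 5.70% in the other controls.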

How the results depend on the processing

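Cubn was lower on the high fat diet under all 17 alternatives (log2 fold change -0.29 to -0.23) and called in 15. It lost its call with high fat G and control J both left out (-0.27, edgeR adjusted p = 0.0773) and without high fat F (-0.23, edgeR adjusted p = 0.0512), and, with 1 library left out, ranged from -0.29 to -0.23. DESeq2's Wald test also called Lrp2 (-0.14) and Dab2 (0.18), making 3 members. With high fat G and control J both left out 0 members were called in edgeR. With 1 library left out, 0 to 2 members were called. Log2 fold changes then ran from -0.17 to -0.13 for Lrp2, 0.0815 to 0.29 for Amn, 0.14 to 0.21 for Dab2, 0.11 to 0.19 for Clcn5, 0.19 to 0.37 for Ocrl, -0.11 to 0.02 for Ehd1 and -0.0165 to 0.0597 for Myo6. Ehd1 turned to 0.0196 and Myo6 to -0.0165 without control J, and Myo6 to -0.0388 when high fat G was dropped too. The cause was not tested. Over all genes 1469 were called, against 873 and 886 with limma on log2(FPKM + 0.1) and log2(FPKM + 1), of which 38.7% and 38.8% were higher on the high fat diet against 48.7%, against 417 with high fat G and control J both left out, and against 739 to 1528 with 1 library left out, the lowest without high fat F and the highest without control M. Other counts below 1469 by more than 1.5 times were 934 without high fat A, 908 without high fat G, 801 without control J and 795 without control I. In the lists, DESeq2's Wald test called 4 receptors and partners, 4 vitamin handling genes and 1 recycling gene, and a mean of at least 5 CPM also gave 1 recycling gene. Limma on either FPKM scale called 0 lysosomal genes. With high fat G and control J both left out the counts were 1 receptor, 0 lysosomal genes and 0 vitamin handling genes. With 1 library left out, they were 0 to 1 coat genes, 0 to 1 recycling genes, 1 to 3 receptors and 1 to 2 lysosomal genes. The difference in log2 ratio ran from 0.35 to 0.57 for Amn to Cubn, 0.19 to 0.23 for Lrpap1 to Lrp2 and -0.15 to -0.0898 for Cubn to Lrp2 with 1 library left out. No paired analysis was possible because the library letters differ between the diets. The least abundant member, Ocrl, had 197 counts in control J, the library with the fewest counts outside Rn45s, and at least 418 in each other library. Without control J its log2 fold change was 0.19, against 0.25 over all 8 libraries.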
